A study of Saccharomyces cerevisiae with 6 samples.

Results

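The genes described here are 10 budding yeast genes of arginine and proline breakdown and of its nitrogen control, out of 5449 genes measured. They were taken by name through the annotation of the array platform: the arginine pathway genes CAR1 and CAR2, the proline genes PUT1, PUT2 and PUT4, the GATA factor genes GLN3, GAT1, DAL80 and GZF3, and URE2. All 10 were found, each with 1 probe set. Total RNA of Saccharomyces cerevisiae was measured on 6 Affymetrix expression arrays, 3 per group. All cells lacked SSE1, which encodes an Hsp110 co-chaperone of cytosolic Hsp70, and the groups differed in the plasmid. The control cells carried an empty plasmid, and the others a multi-copy plasmid for the fluorescent protein yEVenus. Each array came from an independent colony grown at 30°C in SC-MSG medium lacking leucine to an OD600 of 0.6, in exponential phase. In media of this name MSG usually denotes monosodium glutamate as the nitrogen source, which the labels do not spell out. The labels state neither the promoter nor the marker gene of the plasmids. The study asked which genes respond when cells are made to overproduce a protein of no use to them.

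Yeast uses arginine and proline as nitrogen sources when better ones are lacking. Arginase (Car1) splits arginine into ornithine and urea, ornithine transaminase (Car2) passes the ornithine carbon on toward proline, and in the mitochondrion proline oxidase (Put1) and pyrroline-5-carboxylate dehydrogenase (Put2) turn proline into glutamate. Genes of poor nitrogen sources are under nitrogen catabolite repression: Gln3 and Gat1 are zinc finger activators that bind GATA sites, Dal80 and Gzf3 are repressors that bind like sites, and Ure2 holds Gln3 in the cytoplasm when a good nitrogen source is present. DAL80 is itself a gene under this repression.

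The values are the authors' RMA log2 expression levels, which are relative to the bulk of transcripts on an array. Within groups the arrays correlated at 0.996 to 0.998 across genes, and between groups at 0.966 to 0.978. SSE1 was at 3.14 ± 0.116 in the controls and 3.17 ± 0.071 in yEVenus cells (SD, n = 3 each), within the 2.57 to 4.08 of 23 probe sets without a target, as its deletion implies. Markers of mating type a were present in both groups, with a log2 summed level over 7 of 7 genes of 13.75 to 13.84 with the empty plasmid and 14.55 to 14.61 with yEVenus. Those of mating type alpha summed to 8.86 to 9.03 and 8.98 to 9.10 over 4 of 4 genes, of which MF(ALPHA)1 was below the highest no-target level in both groups. Those of meiosis and sporulation summed to 8.74 to 8.88 and 8.84 to 8.97 over 6 of 6. By gene, 5 of the 7 a markers rose, STE6 fell (-0.36) and STE2 did not pass (-0.088). The other alpha markers were above the highest no-target level in the controls, MF(ALPHA)2 at 4.68, STE3 at 6.50 and SAG1 at 8.53. STE3 fell (-0.87) and the 3 other alpha markers rose. Of the 6 meiosis and sporulation markers, 2 rose, among them NDT80 (1.05), and 2 fell, among them SPS4 (-1.53). For 7 of 7 control genes with a probe set at either end, the gap between the 3' and the 5' probe set was larger on every yEVenus array, with a mean of 1.83 ± 0.029 against 2.48 ± 0.067 (SD of array means, n = 3 each). Across genes, which are not independent replicates, the difference between the groups followed coding length, with a Spearman rho of -0.46. The part of these shifts in the results below was not tested, except that values with the length trend removed are given.

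Of the 10 genes, 5 rose with yEVenus and 4 fell (limma, Benjamini-Hochberg adjusted p under 0.05 over all genes). This is a comparison in which 70.4% of all genes passed, 29.3% upward and 41% downward, so a call by itself says little about these genes. For 9 of the 10 the groups did not overlap, as for 74.9% of all genes. The median size of the log2 difference was 0.46 for the 10 genes and 0.30 over all genes tested. By role, 4 of the 5 enzyme and permease genes rose and 1 fell, while 1 of the 5 regulator genes rose and 3 fell. The median log2 difference was 0.53 in the former and -0.20 in the latter, against -0.07 over all genes. With the length trend removed these medians were 0.69, -0.0094 and -0.013, so the median of the regulators was then near that of all genes. The single regulators were spread around it, with DAL80 at 0.78, GAT1 at 0.18, GLN3 at -0.0094, GZF3 at -0.21 and URE2 at -0.46. In a culture measured in bulk, more cells with a transcript and more transcript per cell cannot be told apart.

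**Figure D1:**
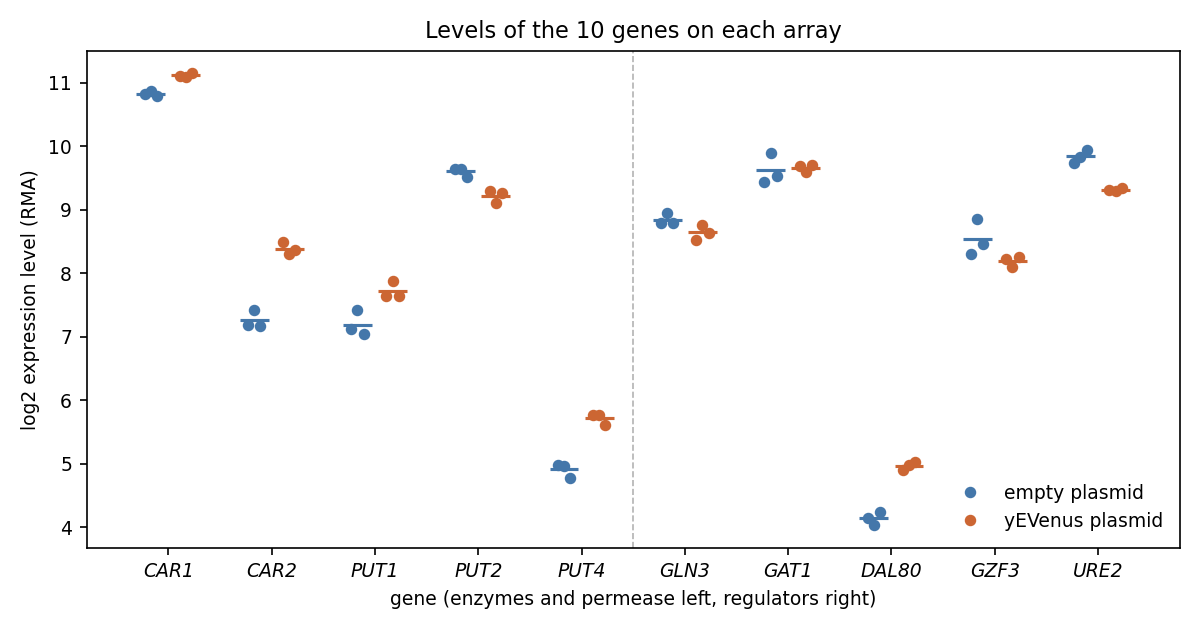
Log2 expression level (y axis, RMA) of the 10 genes (x axis) on each of the 6 arrays, with short lines at the group means (n = 3). The points of the groups are separate for all genes but GAT1, and CAR2, PUT4 and DAL80 have the widest gaps upward.

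CAR1, the arginase gene (YPL111W, chromosome XVI), was at 10.82, 10.88 and 10.79 on the empty-plasmid arrays and at 11.11, 11.09 and 11.15 on the yEVenus arrays. All yEVenus cultures were above all controls, by a narrow margin. The gene rose 1.22-fold (log2 difference 0.29 ± 0.049, SE; limma, adjusted p = 0.0011), which was not past a minimum change of 1.2-fold (adjusted p = 0.608).

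CAR2, the ornithine transaminase gene (YLR438W, chromosome XII), changed most of the 10. It was at 7.19, 7.42 and 7.17 with the empty plasmid and at 8.49, 8.31 and 8.36 with yEVenus. The lowest yEVenus array lay 0.88 above the highest control. CAR2 rose 2.18-fold (log2 difference 1.13 ± 0.083, SE; limma, adjusted p = 2.23e-05), a larger difference than in 97.7% of genes. It thus rose more than CAR1, the step before it: the within-array log2 difference of CAR2 minus CAR1 went from -3.57 ± 0.1 to -2.73 ± 0.0959 (SD, n = 3 each). The change of 0.84 had an exact two-sided permutation p of 0.1, the smallest that 3 against 3 arrays allow, or 0.133 adjusted over the 4 pairs of genes compared. Both genes next to CAR2 on the chromosome were higher too, DIF1, a gene of ribonucleotide reductase localisation, by 1.32 and LSM3, an RNA-processing gene, by 1.17 on the log2 scale. These neighbours are short (402 and 270 nt, against 1275 nt for CAR2), and once the length trend was removed DIF1 was at 0.85, LSM3 at 0.56 and CAR2 at 1.29. CAR2 overlaps neither neighbour in the RefSeq annotation.

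PUT4, which encodes the high-affinity proline permease (YOR348C, chromosome XV), was at 4.99, 4.96 and 4.78 with the empty plasmid and at 5.77, 5.77 and 5.61 with yEVenus. These are dim signals, above those of every no-target probe set, and the groups were well apart. PUT4 rose 1.75-fold (log2 difference 0.81 ± 0.0752, SE; limma, adjusted p = 5.71e-05). Its neighbours PYK2 and CIN1 were at -0.18 and 0.09 on the log2 scale.

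The mitochondrial steps of proline breakdown went opposite ways. PUT1, the proline oxidase gene (YLR142W, chromosome XII), was at 7.12, 7.41 and 7.04 with the empty plasmid and at 7.64, 7.88 and 7.64 with yEVenus. It was highest in replicate 2 of each group, and the groups were 0.23 apart at their nearest points. PUT1 rose 1.45-fold (log2 difference 0.53 ± 0.11, SE; limma, adjusted p = 0.00300). PUT2, the dehydrogenase gene of the next step (YHR037W, chromosome VIII), was at 9.64, 9.65 and 9.52 with the empty plasmid and at 9.29, 9.10 and 9.26 with yEVenus. PUT2 fell 1.31-fold, with every yEVenus array below every control (log2 difference -0.39 ± 0.0676, SE; limma, adjusted p = 0.00129). Against a minimum change of 1.2-fold, neither passed (adjusted p = 0.0611 and 0.138). The within-array difference of PUT2 minus PUT1 went from 2.41 ± 0.155 to 1.49 ± 0.239 (SD, n = 3 each), a change of -0.92 (exact two-sided permutation p = 0.1, the smallest possible, adjusted p = 0.133).

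DAL80, which encodes a GATA repressor (YKR034W, chromosome XI), was the regulator that rose. It was at 4.14, 4.03 and 4.24 with the empty plasmid and at 4.91, 4.97 and 5.02 with yEVenus. The control values lay around the highest mean of the probe sets with no target, 4.08, with replicate 2 below it. That mean is over all arrays, and on each single array DAL80 was above every probe set with no target. All yEVenus values lay 0.66 or more above the controls. DAL80 rose 1.78-fold (log2 difference 0.83 ± 0.0667, SE; limma, adjusted p = 3.07e-05). This fold rests on a control level near that of no target. GZF3, the other GATA repressor gene (YJL110C, chromosome X), went down: it was at 8.30, 8.85 and 8.46 in the controls and at 8.22, 8.09 and 8.25 with yEVenus. The groups were only 0.05 apart, and replicate 2 of the controls stood above the rest. The log2 difference was -0.35 ± 0.131 (SE; limma, adjusted p = 0.0445). Between the repressor genes, the within-array difference of DAL80 minus GZF3 changed by 1.17, from -4.40 ± 0.368 to -3.22 ± 0.0985 (SD, n = 3 each; exact two-sided permutation p = 0.1, the smallest possible, adjusted p = 0.133).

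The call of GZF3 was weak. It was lost without empty-plasmid replicate 2 (-0.19, adjusted p = 0.0627) or replicate 3 (-0.38, adjusted p = 0.0616). It was also lost without yEVenus replicate 1 (-0.36, adjusted p = 0.0898), replicate 2 (-0.30, adjusted p = 0.136) or replicate 3 (-0.38, adjusted p = 0.0655). With the length trend removed, GZF3 was at -0.21 (adjusted p = 0.178).

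The activator genes moved little. GLN3 (YER040W, chromosome V) was at 8.78, 8.96 and 8.79 with the empty plasmid and at 8.53, 8.76 and 8.64 with yEVenus, with the groups 0.02 apart. Its log2 difference was -0.20 ± 0.0768 (SE; limma, adjusted p = 0.0482), and with the length trend removed it was -0.0094 (adjusted p = 0.92). The call was lost without empty-plasmid replicate 2 (-0.14, adjusted p = 0.14) or 3 (-0.23, adjusted p = 0.0583), and without yEVenus replicate 1 (-0.14, adjusted p = 0.159) or 3 (-0.20, adjusted p = 0.102). GAT1 (YFL021W, chromosome VI) was at 9.44, 9.89 and 9.53 with the empty plasmid and at 9.68, 9.59 and 9.70 with yEVenus. The groups overlapped, because control replicate 2 was above every yEVenus array. The log2 difference of GAT1 was 0.04, with a 95% interval of -0.22 to 0.29 (limma, adjusted p = 0.782). Without control replicate 2 it was 0.17 (adjusted p = 0.0461), without replicate 1 it was -0.054 and without replicate 3 it was -0.0077. The within-array difference of GAT1 minus GLN3 changed by 0.23 (exact two-sided permutation p = 0.2, also 0.2 adjusted).

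URE2, which encodes the cytoplasmic inhibitor of Gln3 (YNL229C, chromosome XIV), fell most of the 10. It was at 9.74, 9.83 and 9.95 with the empty plasmid and at 9.31, 9.29 and 9.34 with yEVenus. The yEVenus cultures were close together and all 0.40 or more below the controls. URE2 fell 1.44-fold (log2 difference -0.53 ± 0.0625, SE; limma, adjusted p = 0.000179). Its neighbours ELA1 and JJJ1 were at -0.31 and -0.05 on the log2 scale.

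**Figure D2:**
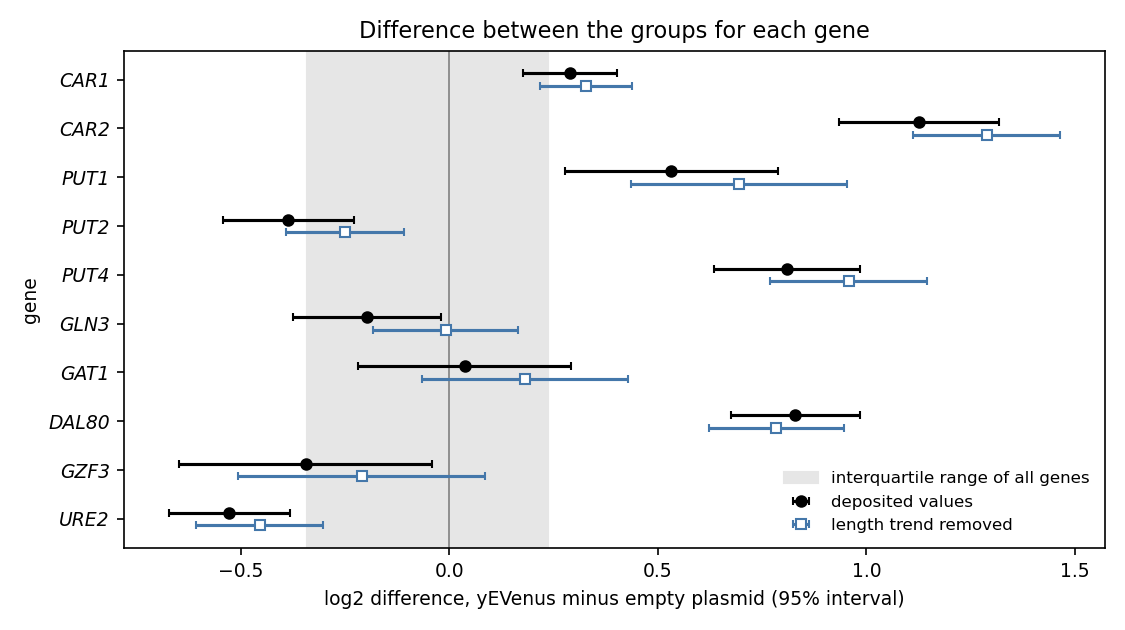
Log2 difference, yEVenus minus empty plasmid (x axis), of each gene (y axis) with its 95% limma interval, from the deposited values (filled circles) and with the length trend removed (open squares); the grey band is the interquartile range of all genes, from -0.34 to 0.24. CAR2 at 1.13, DAL80 at 0.83 and PUT4 at 0.81 lie farthest above the band and URE2 at -0.53 below it, while GLN3 moves to -0.0094 when the trend is removed.

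The 10 genes have coding lengths of 810 to 2193 nt, a range in which the array-wide trend lay near or below 0. Removing the trend therefore moved 9 of them upward, by 0.04 to 0.19, and DAL80, the shortest, by -0.05. Then 5 of the 10 rose and 2 fell, where 65% of all genes passed, 31.4% upward and 33.5% downward. CAR1 was at 0.33, CAR2 at 1.29, PUT1 at 0.69, PUT4 at 0.96 and DAL80 at 0.78, all past the threshold, as were PUT2 at -0.25 and URE2 at -0.46. The deleted SSE1 was raised to 0.20 by the same step.

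**Figure D3:**
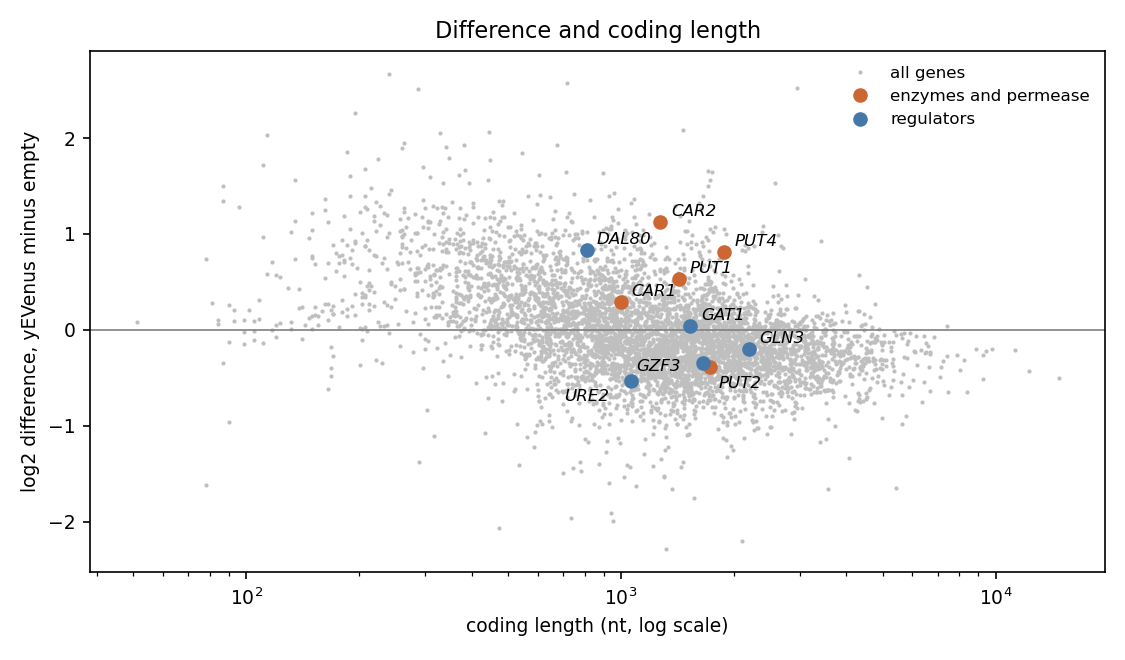
Log2 difference, yEVenus minus empty plasmid (y axis), against coding length (x axis, log scale), for all 5449 genes (grey) and the 10 genes (coloured). Short genes lie mostly above 0 and long ones below; CAR2 at 1.13 and PUT4 at 0.81 lie above the bulk of genes near their length, and URE2 at -0.53 lies in its lower part.

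Signal strength divided the genes in a second way. CAR2, PUT1, PUT4 and DAL80 belong to the dimmest 25% of genes, with a mean log2 level up to 8.05, and all 4 rose. Of the other 6, CAR1 rose and 4 fell. Over all genes, 30.5% of these dim genes rose and 32% fell, against 29% and 44.1% of the rest. Control replicate 2 was the highest control for 7 of the 10 genes, in both roles, and yEVenus replicate 2 the lowest of its group for 6. This order was not counted over all genes, so it cannot be read as particular to the 10.

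The genes whose pattern over the 6 arrays was most like that of CAR2, by the root mean square distance between deviations from each gene's mean, were CRC1 (0.0373 on the log2 scale), which encodes a mitochondrial carnitine transporter, CHA1 (0.0647), which encodes the catabolic serine and threonine deaminase, and the little-characterised FMP33 (0.0831). Their log2 differences were 1.11, 1.18 and 1.10. For URE2 the nearest were STE20 (0.0193), a kinase gene of the pheromone pathway, YRB2 (0.0231), of nuclear export, and PIB2 (0.025), a gene of TORC1 activation by glutamine. Their log2 differences were -0.53, -0.49 and -0.50. For both sets, differences near those of CAR2 and URE2 follow from the choice by distance over the same arrays.

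**Figure D4:**
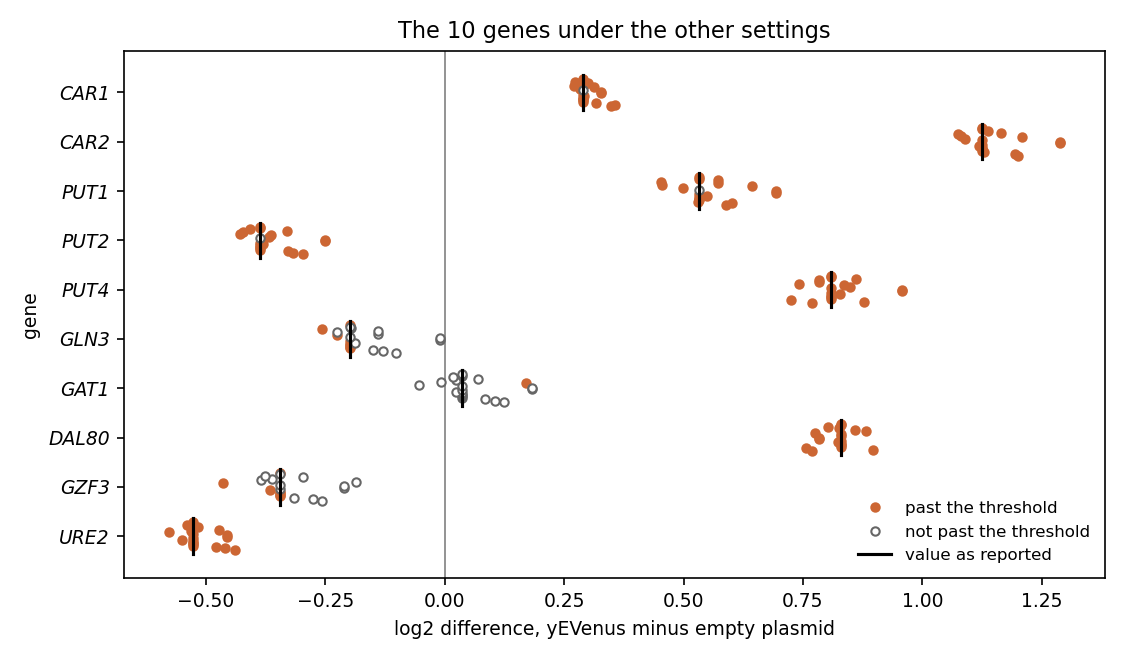
Log2 difference, yEVenus minus empty plasmid (x axis), of each gene (y axis) as reported (bars) and under up to 20 other settings (points, filled where past the threshold of that setting). CAR2, PUT4, DAL80 and URE2 have filled points only, from 1.07 to 1.29 for CAR2, while GLN3 and GZF3 have open points under 12 and 13 settings.

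Related genes of the pathway were read from 8 lists, 80 measured genes in all, and their counts stand against the 70.4% of all genes that passed, 29.3% upward and 41% downward. Of 9 regulators of arginine, proline, allantoin or GABA genes, 1 rose and 5 fell, or 66.7% changed (median -0.14 on the log2 scale). Some of these regulators, MCM1 and UME6 among them, also act on other genes. With the length trend removed, 1 rose and 3 fell (median 0.046). ARG80, of the complex through which arginine induces CAR1 and CAR2, rose from 7.37 ± 0.0564 to 8.01 ± 0.0763 (SD, n = 3 each), or 1.56-fold. MCM1, another subunit of that complex with many other targets, fell from 10.08 ± 0.128 to 9.32 ± 0.0169, or 1.70-fold, and ARG81, the arginine sensor, was at -0.14. UME6, which represses CAR1 among other genes, fell 1.59-fold, and DAL81, an activator shared by allantoin and GABA genes, fell 1.43-fold. The count of 5 was 3 without empty-plasmid replicate 1, 2 or 3 and without yEVenus replicate 2 or 3. PUT3, the proline-responsive activator of PUT1 and PUT2, was at -0.15 (limma, adjusted p = 0.0467), and at 0.11 with the length trend removed (adjusted p = 0.147).

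Of 8 measured genes of arginine and ornithine synthesis, 5 fell and 1 rose, or 75% changed (median -0.16). CPA1, a subunit of carbamoyl phosphate synthetase, had a log2 difference of -0.52, ARG1 one of -0.49 and ARG3 one of -0.28. Without yEVenus replicate 2, the number that fell was 3. The gene that rose was ORT1, the mitochondrial ornithine exporter, from 8.92 ± 0.0632 to 9.50 ± 0.0645 (SD, n = 3 each). Once the length trend was removed, 3 of the 8 rose and 3 fell (median 0.0026). Of the 3 proline synthesis genes, PRO1 and PRO2 fell, by 0.35 and 0.29 on the log2 scale. PRO3, whose enzyme also serves arginine breakdown by making proline from the product of Car2, was at -0.12 (limma, adjusted p = 0.0702). With 66.7% changed, this list too was near the share of all genes. Once the length trend was removed, PRO1 was at -0.19 (adjusted p = 0.0159), PRO2 at -0.12 (adjusted p = 0.0614) and PRO3 at -0.15 (adjusted p = 0.0326).

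Of 7 other genes of arginine and proline uptake or of vacuolar basic amino acid transport, 4 rose and 0 fell, so that 57.1% changed (median 0.22). ALP1, an arginine permease gene, rose 1.65-fold (log2 difference 0.72 ± 0.0838, SE, n = 3 each; limma, adjusted p = 0.000161), and VBA1, a vacuolar transporter gene, rose 1.39-fold. CAN1, the main arginine permease gene, passed the test at 0.34, but its levels of 3.24 and 3.57 lay within the range of probe sets with no target. The general amino acid permease gene GAP1, which also carries proline, was at 0.13 (adjusted p = 0.0976). Once the length trend was removed, 7 of the 7 rose (median 0.27).

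Among 28 measured genes under nitrogen catabolite repression that are not of the 10, 16 rose and 6 fell, or 78.6%, with a median of 0.23 against -0.07 over all genes. Of these, 4 are transport genes also counted above. DAL4, the allantoin permease gene, rose by 0.998 on the log2 scale, MEP2, the high-affinity ammonium permease gene, 1.86-fold from 9.06 ± 0.13 to 9.95 ± 0.0519, and MEP3 1.67-fold (SD, n = 3 each). GLN1, of glutamine synthetase, fell 1.53-fold, CPS1, a vacuolar carboxypeptidase gene, 1.51-fold and RSN1 1.38-fold. Once the length trend was removed, 20 of the 28 rose and 4 fell (median 0.34). The list was put together with results on such genes in these data known, so its direction is no independent evidence. In glutamate metabolism, 2 of 5 genes rose, GDH3 by 0.40 and GDH2, the degradative dehydrogenase gene, by 0.35, and 2 fell, GLN1 and, by 0.29, GDH1. These 4 of 5 are 80%. After removal of the length trend, 3 of the 5 rose and 1 fell (median 0.27), with GDH2 at 0.62 and GDH1 at -0.12 (adjusted p = 0.052).

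Of the 6 other GATA zinc finger genes, 4 rose and 1 fell, or 83.3% changed (median 0.21). SRD1, named for ribosomal RNA processing, rose 2.06-fold from 8.38 ± 0.232 to 9.42 ± 0.134 (SD, n = 3 each), and ASH1, the daughter-cell repressor of mating-type switching, fell by 0.39. GAT4, GAT3 and ECM23 passed upward with control levels of 4.05, 2.68 and 2.88, within the no-target range. Once the length trend was removed, 1 of the 6 rose and 2 fell, with GAT4 at -0.064 and GAT3 at -0.27. Of 21 genes of TOR and nitrogen signalling upstream of the GATA factors, 11 fell and 1 rose, so that 57.1% changed, a smaller share than of all genes (median -0.18). The phosphatase gene SIT4, whose product acts on Gln3, fell by 0.51, MTC5 of the SEA complex by 0.52 and RTG2 by 0.44. MEH1, of the vacuolar EGO complex, rose by 0.43. Once the length trend was removed, 5 of the 21 fell and 5 rose (median -0.07).

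**Figure D5:**
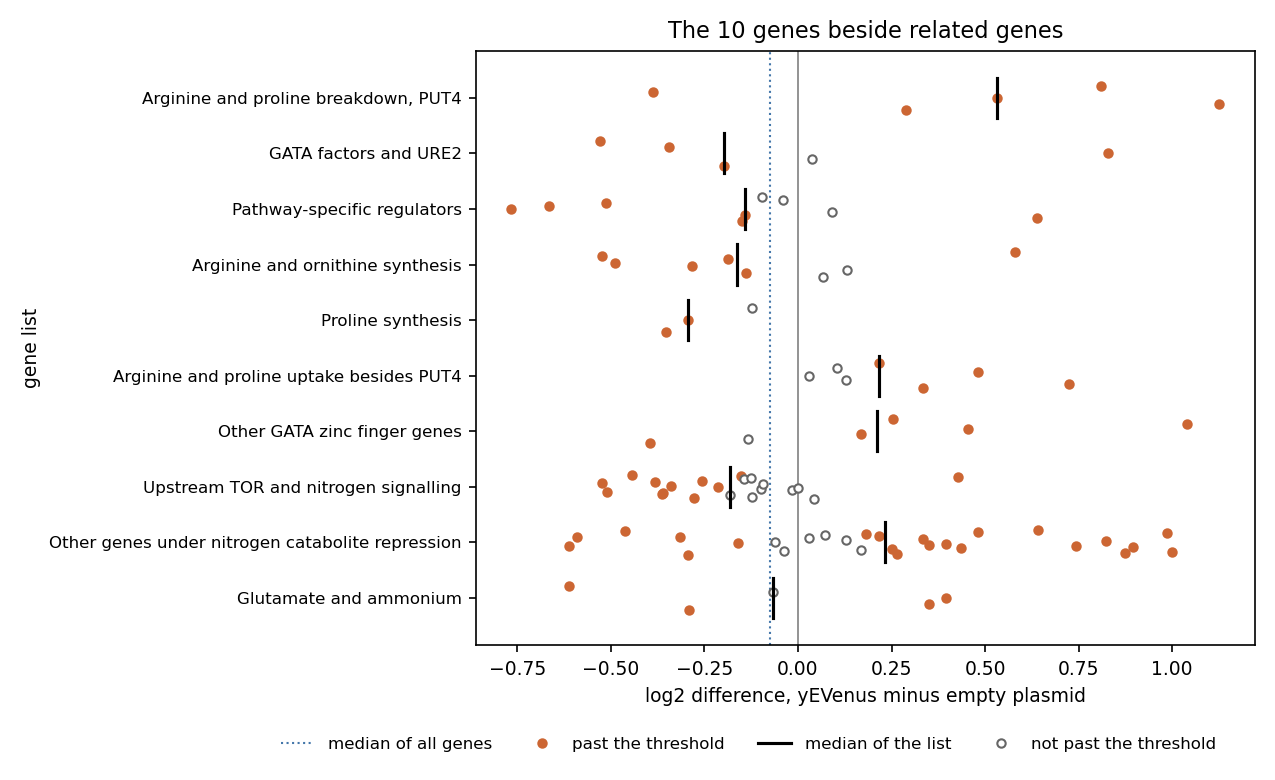
Log2 difference, yEVenus minus empty plasmid (x axis), of the 10 genes, split by role, and of the measured genes of 8 related lists (y axis); filled points passed the limma threshold, vertical bars are list medians and the dotted line is the median of all genes, -0.07. The medians are highest for the breakdown genes with PUT4, at 0.53, then 0.23 for other genes under catabolite repression, 0.22 for uptake and 0.21 for other GATA genes; a gene in several lists is drawn in each.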

How the data were processed

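Expression was measured on 6 single-channel arrays, 3 per plasmid group. The deposited values are log2 expression levels that the authors made with RMA in R 3.2.0, per the submitters' processing notes. No genome build or filter is named: not given in the sources used here. RMA corrects background, equalises the array distributions and summarises each probe set, and array medians were 9.06 to 9.13. The number of arrays limits precision, and an exact test of 3 against 3 cannot go below p = 0.1.

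Of 5900 probe sets, 5498 name 1 gene, 0 several and 402 none in the platform annotation. Symbols were updated by gene identifier through a RefSeq table of assembly R64, which also gave chromosomes, neighbours and lengths (introns included, called coding lengths as 97% are multiples of 3). The brightest probe set stood for each of 47 genes with several, so that 5449 genes were tested. Group differences were fitted in limma 3.58.1 under R 4.3.3 (lmFit, eBayes, 4 residual degrees of freedom, no block), with Benjamini-Hochberg adjustment over all genes. "Rose" and "fell" mean an adjusted p under 0.05. The length trend was a loess fit (span 0.5), per array, of deviations from gene means on log2 length. Within-array differences of 4 gene pairs had an exact permutation test.

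The 10 genes and the lists were chosen with earlier results of these data known, and no set test was run. Named genes are the 10, up to 3 per list and direction with the smallest p, 3 most like CAR2 and URE2 in pattern, and a few others named for their role. Each replicate number was checked for pairing: deviations of same-numbered arrays correlated at 0.19, -0.13 and 0.20, so no pairing was used. In simulated arrays of 5449 genes the test recovered 40.3% of 67 genes changed 1.2-fold, 88.1% of 67 changed 1.5-fold and 98.5% of 66 changed 2-fold, and 6.21% of its calls were false. Only those genes were changed in the simulation, with independent noise and no length trend. In the data 70.4% of genes passed and such a trend was present, so these rates need not hold for them. The closing section gives 20 other settings: scaling, dim genes, probe set choice, variance model, array weights, block, length, thresholds and each array left out. Promoter and protein sequences, ARG5,6, DUR1,2 and YGR125W were not analysed here.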

Additional observations from a re-analysis of the deposited data

Results flagged for a closer look

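The control probe sets, which enter no comparison of genes, differed between the groups. The gap between the 3' and the 5' probe set of 7 yeast control genes was larger by 0.65 on the log2 scale with yEVenus, at a mean of 2.48 against 1.83 with the empty plasmid. Its part in the values of the 10 genes was not tested. No other result was singled out: the groups of 3 arrays are too small for a search for outlying arrays.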

How the results depend on the processing

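Under 20 other settings, CAR2, PUT4 and DAL80 kept their call in the 19 that included them, with log2 differences of 1.07 to 1.29, 0.73 to 0.96 and 0.76 to 0.90, and URE2 in 20 of 20 (-0.58 to -0.44). CAR1, PUT1 and PUT2 lost it only against a minimum change of 1.2-fold. GLN3 lost its call under 12 settings and GZF3 under 13, keeping the sign in each. GAT1 was not past the threshold in 19, and its sign turned without empty-plasmid replicate 1 (-0.054) and replicate 3 (-0.0077), while without replicate 2 it passed at 0.17. The number of the 10 that fell was 2 under cyclic loess, median centring, quantile normalization, the length trend removed, the length trend removed with the replicate block, and a threshold of 0.01. Over all genes the number that fell was also lower under these settings, 1778 to 2108 against 2236 as reported. A minimum change of 1.2-fold left 4 changed, 3 upward and 1 downward, and 1753 of all genes. Leaving out the dimmest 25% also left out 4 of the 10, so that 5 of the other 6 changed and 1 rose. Of the 4086 genes kept, 3074 changed and 1215 rose. With the replicate block alone, 8 of the 10 and 3827 of all genes changed; 2 of 6 arrays correlated best with their own number in the other group. Leaving out 1 array gave 7 to 9 changed, 5 to 6 upward and 2 to 4 downward, and 3359 to 3809 genes in all. Dim signals limit CAN1, GAT3, ECM23 and the control level of DAL80. In the related lists, these counts moved by more than 1.5 times (count as reported in brackets). Against a minimum change of 1.2-fold, 9 other catabolite repression genes rose (16) and 3 fell (6), 3 signalling genes fell (11), 2 uptake genes rose (4), 1 GATA gene rose (4), 3 pathway regulators (5), 2 arginine synthesis genes (5) and 0 proline synthesis genes (2) fell, and 0 glutamate genes rose (2) and 1 fell (2). Without the dimmest 25%, 9 catabolite repression genes, 2 uptake genes, 1 GATA gene, 1 glutamate gene and 0 pathway regulators (1) rose. With the length trend removed, alone or with the replicate block, 3 pathway regulators fell, 3 arginine synthesis genes rose (1) and 3 fell, 7 uptake genes rose, 1 GATA gene rose and 2 fell (1), 5 signalling genes rose (1), and 1 glutamate gene fell. Signalling genes that fell then numbered 5, or 6 with the block, with which 1 proline synthesis gene fell. Arginine synthesis genes that rose numbered 3 under cyclic loess, median centring or quantile normalization and 2 with an intensity trend or a threshold of 0.10, and those that fell 3 under median centring, a threshold of 0.01 or without yEVenus replicate 2. GATA genes that rose numbered 2 under cyclic loess, quantile normalization, an intensity trend or a threshold of 0.01, and 2 fell without empty-plasmid replicate 1. Pathway regulators that fell numbered 3 under median centring, an intensity trend, the replicate block, a threshold of 0.01 and without any one array but yEVenus replicate 1.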
